A study of Mus musculus with 4 samples.

Results

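The collagen genes of the mouse heart are described here in 5 classes of nuclei, in mice with a conditional knockout of Pkp2 (cKO) and in control mice. Every gene symbol made of Col, a type number, the letter a and a chain number was taken, which gave 44 of the 44628 gene identifiers measured. By the type of collagen they encode, 11 genes were fibrillar, 8 were of the basement membrane, 9 were FACIT (fibril-associated collagens with interrupted triple helices) and 16 were of other types. In the nuclei kept, 43 of the 44 had at least 1 UMI (unique molecular identifier, the tag of 1 captured RNA molecule), and Col10a1 had none.

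Single-nucleus RNA sequencing on the BD Rhapsody system was done on frozen heart tissue of mice aged 8 weeks, 2 weeks after tamoxifen. The control libraries came from mice titled MCM cre/+, whose genotype tag reads wt, and the cKO libraries from mice titled PKP2fl/fl MCM cre/+. All mice of both groups were given tamoxifen. Each library is a pool of 2 hearts, given as 1 male and 1 female, and there were 2 libraries per group, so that n = 2 pools throughout. Plakophilin 2, the product of Pkp2, is a protein of the desmosomes that join heart muscle cells, and mutations in the human gene are the most common genetic finding in arrhythmogenic cardiomyopathy. No source used here names the promoter that drives the Cre allele.

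Collagens are secreted proteins whose chains wind into a triple helix. Types I and III form the fibrils that carry tension in the heart, type V chains help to start a fibril and set its width, and FACIT collagens sit on the fibril surface. Type IV chains form the sheet-like network of the basement membrane around heart muscle cells and vessels, where collagens XV and XVIII are also found. Fibroblasts are known as the main source of fibrillar collagen in the heart.

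Promoter windows, the 250 bases before a transcript start in RefSeq (build GRCm38.p6), were found for 35 of the 44 genes, in 38 windows. Those of Col3a1, Col8a1 and Col15a1 are printed because these genes passed the test between groups and their windows hold no annotated exon. The runs are written 5′ to 3′ on the gene's strand, and capitals mark TATAAA or, on either strand, GGGCGG.
Col3a1 (chr1:45311288-45311537, plus strand): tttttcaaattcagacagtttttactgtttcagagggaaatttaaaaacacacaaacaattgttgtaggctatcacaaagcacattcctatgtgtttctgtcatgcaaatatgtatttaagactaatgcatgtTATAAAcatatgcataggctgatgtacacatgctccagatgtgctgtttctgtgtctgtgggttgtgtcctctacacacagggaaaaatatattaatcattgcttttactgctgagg
Col8a1 (chr16:57754738-57754987, minus strand): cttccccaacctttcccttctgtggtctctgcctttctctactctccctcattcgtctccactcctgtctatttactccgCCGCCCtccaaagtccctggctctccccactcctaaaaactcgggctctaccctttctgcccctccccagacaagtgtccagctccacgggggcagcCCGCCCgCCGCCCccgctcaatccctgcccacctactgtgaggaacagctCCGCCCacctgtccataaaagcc
Col15a1 (chr4:47207762-47208011, plus strand): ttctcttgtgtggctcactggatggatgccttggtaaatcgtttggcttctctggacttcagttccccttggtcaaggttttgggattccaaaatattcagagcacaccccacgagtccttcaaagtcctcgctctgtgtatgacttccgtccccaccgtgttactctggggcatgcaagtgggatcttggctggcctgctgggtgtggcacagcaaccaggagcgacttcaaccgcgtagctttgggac
The Col3a1 window held TATAAA 117 bases before the start. The Col8a1 window held GGGCGG 4 times, each time on the opposite strand as CCGCCC, and the Col15a1 window held neither. Searched on both strands, CCAAT was in 13 of the 38 collagen windows (34.2%, against 33.8% of 32851 windows of all genes), TATAAA in 5 (13.2% against 12.4%) and GGGCGG in 22 (57.9% against 32.7%). A match describes letters and is no site of binding.

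The libraries held 5947 to 14238 barcodes and 13491201 to 40536562 UMIs, and 18739 nuclei were kept. Although every sample has a cell type tag of cardiomyocyte, marker genes, none of them a collagen, gave 5 classes large enough to test. They are called cardiomyocyte-like, fibroblast-like, endothelial-like, mural-like (pericytes and smooth muscle) and macrophage-like, since the names rest on those markers. Pkp2 read 568 and 557 CPM (UMIs of a gene scaled to 1000000 UMIs of the class) in control and 617 and 591 in cKO cardiomyocyte-like nuclei, so the counts did not check the deletion. Esr1 read 72.1 and 64.1 CPM in the same control nuclei and 3570 and 3320 in the cKO ones, although both titles name the Cre allele. Xist gave 7 to 28 UMIs per library against 5625 to 17307 from 4 Y-linked genes, which goes against pools of both sexes. Control and cKO below therefore mean libraries that carry those labels.

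Collagen RNA was highest in fibroblast-like nuclei. There, collagen genes took 1.02% and 0.833% of all UMIs in controls 1 and 2 and 2.12% and 1.64% in cKO 1 and 2. The share was 0.310% to 0.614% in mural-like, 0.233% to 0.409% in endothelial-like, 0.171% to 0.627% in macrophage-like and 0.0989% to 0.116% in cardiomyocyte-like nuclei. Each class was normalised apart, and levels set side by side between classes are descriptions with no test.

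**Figure D1:**
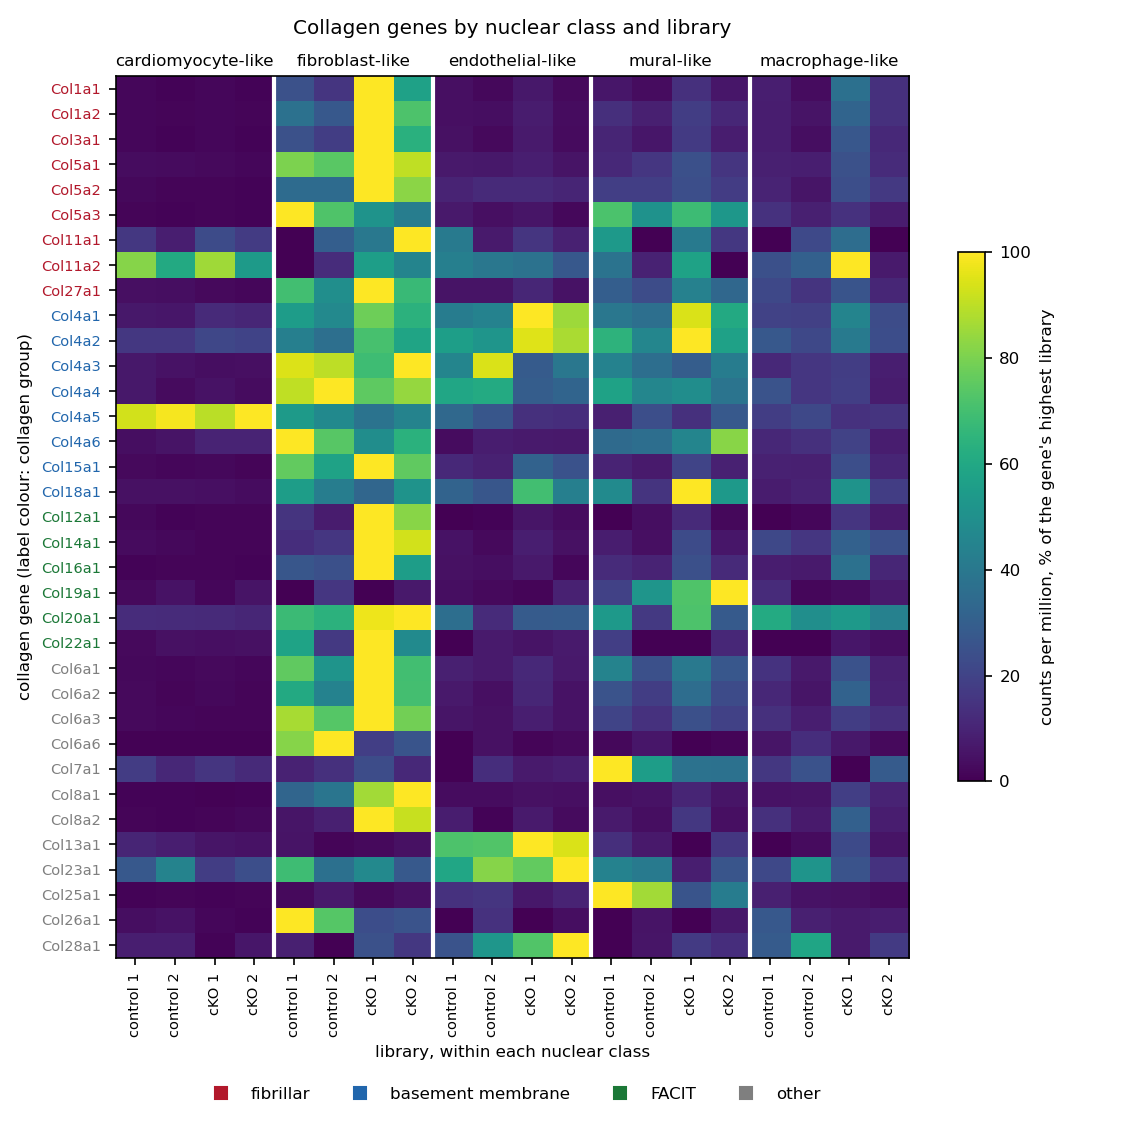
Heat map of the 35 collagen genes tested in at least 1 class (rows) in the 4 libraries of 5 nuclear classes (columns); colour is normalised CPM as a percentage of the gene's highest library, and label colour gives the collagen group. The mean level was highest in fibroblast-like nuclei for 24 of the 35 genes, while Col4a5 was highest in cardiomyocyte-like, Col13a1 in endothelial-like and Col25a1 in mural-like nuclei.

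Of the 35 genes that passed the filter on low counts in at least 1 class, 24 had their highest mean over the 4 libraries in fibroblast-like, 5 in endothelial-like, 4 in mural-like and 2 in cardiomyocyte-like nuclei. For Col4a4, Col5a1, Col5a2, Col6a1, Col6a2, Col6a3, Col6a6, Col8a1, Col15a1, Col20a1 and Col27a1, all 4 fibroblast-like libraries lay above every library of the class next in order. The same did not hold for Col1a1, Col1a2 and Col3a1, because macrophage-like nuclei of cKO 1 lay above the lowest fibroblast-like library.

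Some genes stood apart in other classes. Col13a1, a transmembrane collagen, averaged 30.2 CPM in endothelial-like nuclei and 3.25 in the next class. Col25a1, also a transmembrane collagen, averaged 89.1 CPM in mural-like and 16.2 in endothelial-like nuclei, and Col19a1 averaged 30.7 in mural-like and 3.12 in macrophage-like nuclei. Col7a1, the chain of anchoring fibrils, averaged 11.1 CPM in mural-like and 3.38 in macrophage-like nuclei. For these 4 genes the libraries of the highest class did not overlap those of the next. The margin was small for Col7a1, whose lowest mural-like library read 7.20 CPM against 5.51 in the highest macrophage-like one, and for Col19a1 (9.66 against 6.22). Col7a1 passed the filter on low counts in cardiomyocyte-like nuclei only. In lymphatic endothelial-like nuclei, a class of 22 to 137 nuclei per library that was not tested, Col23a1 read 473 and 539 CPM in the controls and 369 and 519 in the cKO, without further normalisation, against a mean of 34.4 in endothelial-like nuclei.

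The 9 genes that passed the filter in no class were Col2a1, Col6a4, Col6a5, Col9a1, Col9a2, Col9a3, Col10a1, Col17a1 and Col24a1, among them the chains of cartilage collagens II, IX and X. Their mean was at most 8.81 CPM in any of the 5 classes, the value of Col24a1 in mural-like nuclei. In 14 of the 35 genes the cKO differed from control in at least 1 class. The threshold was a Benjamini-Hochberg adjusted p under 0.05 in edgeR's quasi-likelihood test on UMIs summed per library and class. In a single class 0.258% to 3.71% of all genes passed, and the share passing in at least 1 class was not counted.

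**Figure D2:**
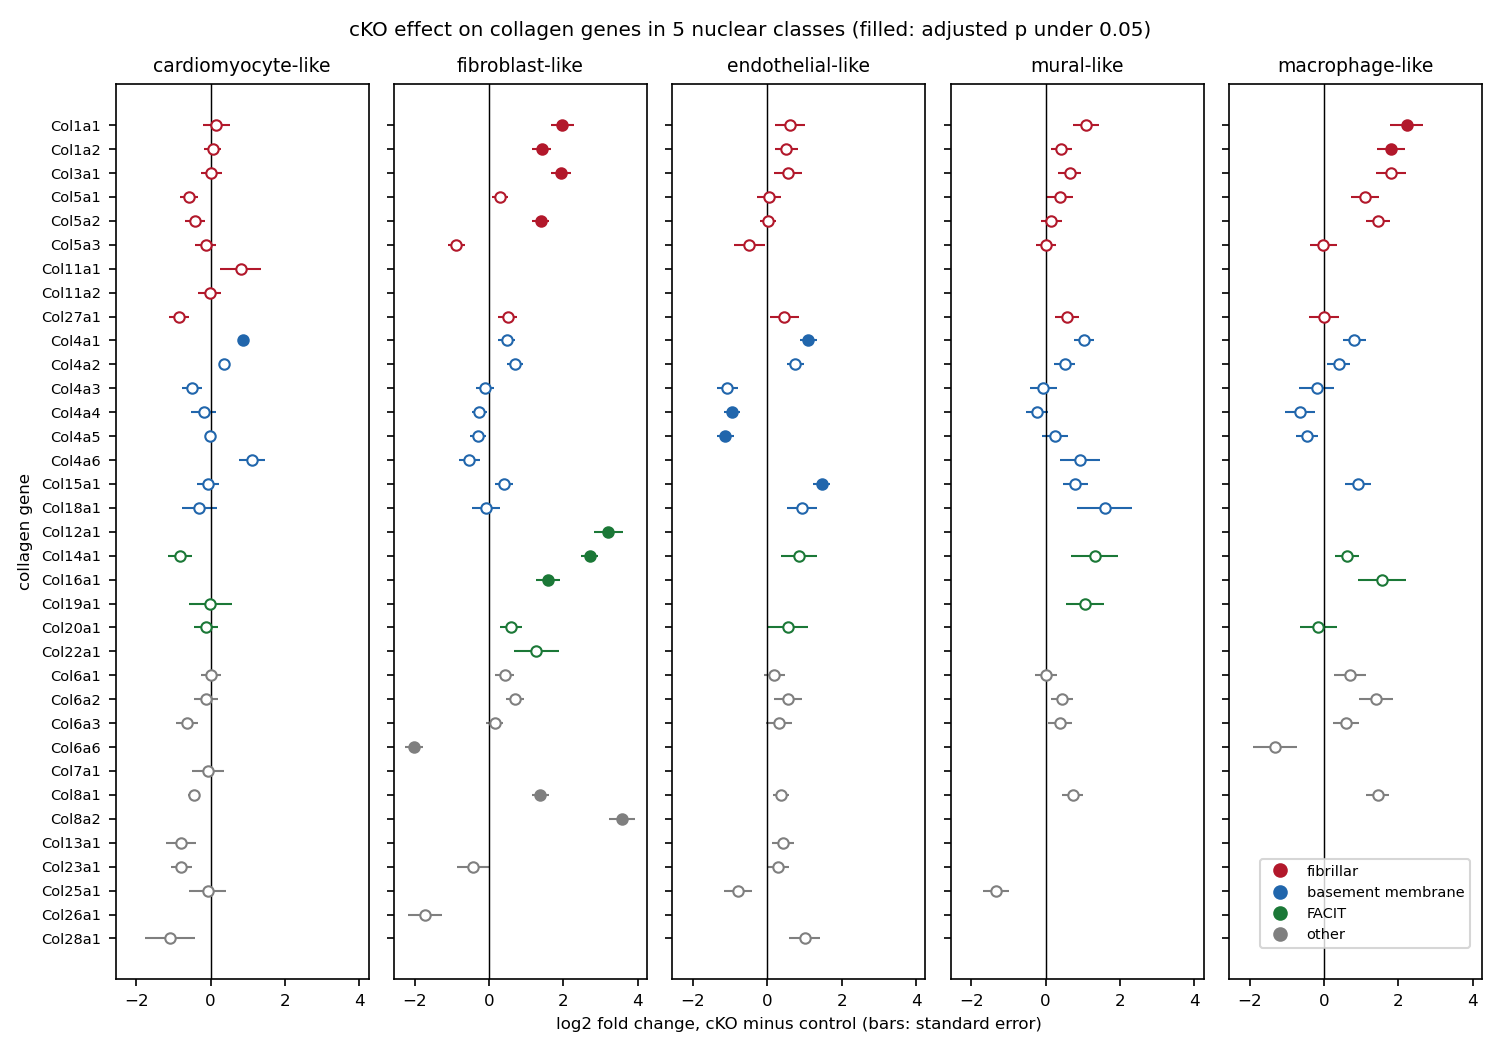
Log2 fold change of cKO over control (x axis; bars, standard error of the edgeR fit on 2 libraries per group) for each collagen gene tested in 5 nuclear classes; filled points have an adjusted p under 0.05 and colours give the collagen group. Filled points number 10 in fibroblast-like, 4 in endothelial-like, 2 in macrophage-like, 1 in cardiomyocyte-like and 0 in mural-like nuclei.

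In fibroblast-like nuclei 28 collagen genes were tested, of which 9 rose and 1 fell in the cKO. Of all 11895 genes tested there, 3.62% passed (2.22% up and 1.4% down). The median log2 fold change was 0.49 over the 28 and 0.01 over all genes, and the groups did not overlap for 20 of the 28, against 42.8% of all genes. By group, 4 of 7 fibrillar genes and 3 of 5 FACIT genes rose, 2 of 8 of the other types rose and 1 fell, and none of 8 basement membrane genes passed in edgeR, 1 of them with an unadjusted p under 0.05 (13.9% of all genes). These counts cover the genes that passed a filter on low counts. Some passed it through the cKO libraries, Col12a1 (5 and 9 control UMIs) and Col8a2 (13 control UMIs) among them.

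Types I and III rose in fibroblast-like nuclei. Col1a1 (chr11:94936224-94953042, plus strand, GENCODE M21) read 586 and 367 normalised CPM in controls 1 and 2 and 2354 and 1347 in cKO 1 and 2. Its fold change was 3.92 (log2 1.97 ± 0.31, SE, n = 2 libraries per group; edgeR adjusted p = 0.00362). Both cKO libraries lay above both controls, as they did for the next 2 genes. Col1a2, the partner chain in type I collagen, read 974 and 719.8 CPM in the controls and 2615 and 1882 in the cKO, a fold change of 2.66 (log2 1.41 ± 0.26; edgeR adjusted p = 0.00865). Col3a1, the only chain of type III, read 839 and 611 CPM against 3381 and 2143, a fold change of 3.83 (log2 1.94 ± 0.28; edgeR adjusted p = 0.00208).

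The type V chains did not move alike. Col5a2 read 429 and 428 CPM in the controls and 1229 and 1016 in the cKO, a fold change of 2.62 (log2 1.39 ± 0.22; edgeR adjusted p = 0.00374). Col5a1 read 373 and 345 CPM against 464 and 419 and did not pass (log2 0.30, edgeR adjusted p = 0.614). Col5a3 read 640.4 and 465 CPM in the controls and 328 and 270.3 in the cKO and did not pass either (log2 -0.88, edgeR adjusted p = 0.0651). The groups overlapped for none of the 3, with the cKO higher for Col5a2 and Col5a1 and lower for Col5a3.

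The 4 fibrillar genes no longer passed without cKO 1, a fit in which the share of all genes that passed also fell. The lone cKO library is there assumed to vary like the controls. The log2 changes kept their direction, at 1.52 for Col1a1, 1.17 for Col1a2, 1.58 for Col3a1 and 1.25 for Col5a2. For Col1a1, Col1a2 and Col3a1, library 1 read higher than library 2 in the controls as well as in the cKO. Col1a2 was also lost without control 2 (edgeR adjusted p = 0.0634).

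**Figure D3:**
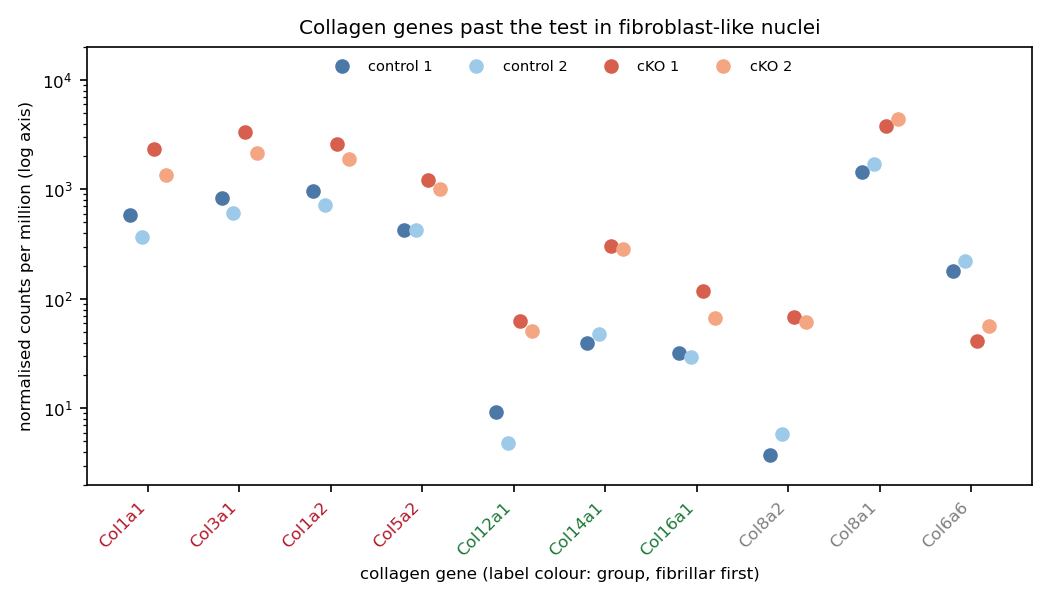
Normalised CPM (log axis) of the 10 collagen genes that passed the test in fibroblast-like nuclei; each point is 1 library of 2 pooled hearts and label colour gives the collagen group. Both cKO points lie above both control points for 9 genes and below them for Col6a6.

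FACIT collagens also rose in fibroblast-like nuclei. Col14a1, whose product binds the surface of type I fibrils, read 39.3 and 48.0 CPM in the controls and 304 and 283 in the cKO, a fold change of 6.52 (log2 2.70 ± 0.24; edgeR adjusted p = 0.000139). Col12a1, a FACIT of tissues under tension, read 9.36 and 4.8 CPM against 62.3 and 51.2 (log2 3.21 ± 0.39; edgeR adjusted p = 0.00069). It rested on 14 control and 231 cKO UMIs, a pooled ratio of 9.32 with a 95% interval of 5.44 to 17.3 for counting error only. Col16a1 read 31.8 and 29.3 CPM against 119 and 66.5, a fold change of 2.99 (edgeR adjusted p = 0.0158) that did not pass without cKO 1 (0.21). The groups did not overlap for any of the 3. Col20a1 (log2 0.59) and Col22a1 (log2 1.28) did not pass.

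Both type VIII chains rose. Type VIII is a short-chain collagen that forms open networks, known from vessel walls. Col8a1 read 1442 and 1718 CPM in control and 3826 and 4433 in cKO fibroblast-like nuclei, a fold change of 2.61 (log2 1.38 ± 0.23; edgeR adjusted p = 0.00553). Its call was lost without cKO 1 (edgeR adjusted p = 0.116) or without cKO 2 (0.133). Col8a2 read 3.74 and 5.86 CPM against 67.7 and 62.0 (log2 3.58 ± 0.36; edgeR adjusted p = 0.000219), on 13 control and 271 cKO UMIs, a pooled ratio of 11.8 (95% interval 6.77 to 22.4, counting error only).

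Type VI collagen forms beaded filaments close to the cell surface, and 1 of its chains fell. Col6a6 read 179.8 and 220.0 CPM in the controls and 41.0 and 56.9 in the cKO, 4.02-fold lower (log2 -2.01 ± 0.24; edgeR adjusted p = 0.000643), and the groups did not overlap. Col6a1 read 652 and 447 CPM against 864 and 602, and its groups overlapped. The log2 changes of Col6a1, Col6a2 and Col6a3 were 0.42, 0.70 and 0.16, and none of them passed in edgeR (adjusted p = 0.549, 0.202 and 0.859). Col26a1 read 22.5 and 16.5 CPM against 5.34 and 5.72, on 43 control and 24 cKO UMIs, and did not pass (log2 -1.72, edgeR adjusted p = 0.0627). The calls of Col12a1, Col14a1, Col8a2 and Col6a6 held without any 1 library, but Col12a1 and Col8a2 passed the filter on low counts through the cKO libraries.

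No basement membrane collagen passed in fibroblast-like nuclei. Col15a1 read 955 and 727 CPM in the controls and 1258 and 950.1 in the cKO, and the groups overlapped narrowly. Col4a1 read 554 and 470.5 CPM against 779 and 643 (log2 0.48, edgeR adjusted p = 0.368), and Col4a2 read 384 and 324 against 629 and 521 (log2 0.70, edgeR adjusted p = 0.129). Both cKO libraries lay above both controls for Col4a1 and Col4a2, and below them for Col4a4, Col4a5 and Col4a6 (log2 -0.26, -0.29 and -0.53).

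Control and cKO fibroblast-like nuclei lay mostly in different clusters, which were built without collagen genes. A cluster led by Lvrn and Scara5 held 380 of 448 and 1051 of 1162 control nuclei (84.8% and 90.4%) and 61 of 625 and 167 of 1365 cKO nuclei (9.76% and 12.2%). A cluster led by Nox4, Cilp and Postn held 67 and 110 control nuclei and 559 and 1091 cKO nuclei (89.4% and 79.9%). Postn, a matrix protein of activated fibroblasts, read 63.7 and 41.6 CPM in control and 1290.3 and 789 in cKO fibroblast-like nuclei. The collagen values of each cluster below are CPM without further normalisation, and these fits were chosen after seeing the data.

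Within the Postn cluster, 4 collagen genes passed, where 0.713% of the 9113 genes tested did. Col1a1 read 915 and 526 CPM in the controls and 2555 and 1473 in the cKO (edgeR log2 1.49, adjusted p = 0.0155). Col14a1 read 48.1 and 85.4 against 329 and 305 (edgeR log2 2.10, adjusted p = 0.00226). Col3a1 (log2 1.72) and Col1a2 (log2 1.17) passed as well, with all 4 genes up. Col8a1 (log2 0.82), Col8a2 (0.82), Col12a1 (1.25), Col16a1 (1.04), Col5a2 (1.02) and Col6a6 (-0.99) did not pass there.

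Within the Scara5 cluster none of 22 collagen genes passed in edgeR, where 0.0436% of 6878 genes did. Of the 22, 1 had an unadjusted p under 0.05, against 4.84% of all genes. Col1a1 read 503 and 324 CPM in the controls and 507 and 487 in the cKO, so the groups overlapped. Col14a1 read 36.9 and 40.2 against 70.7 and 121 (edgeR log2 1.42, adjusted p = 0.302). Col6a6 read 196 and 227 CPM in the controls and 129.7 and 183 in the cKO of this cluster, and 106 and 58.4 against 34.4 and 41.5 in the Postn cluster, so that it was higher in the Scara5 cluster in all 4 libraries. A cluster of 114 nuclei led by Il6 came mostly from cKO 2 (107 nuclei), and without it the same 10 genes passed in fibroblast-like nuclei, where 3.7% of 11866 genes did. DESeq2 called 11, the 10 and Col5a3, where 1.04% of the genes it fitted were called.

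**Figure D4:**
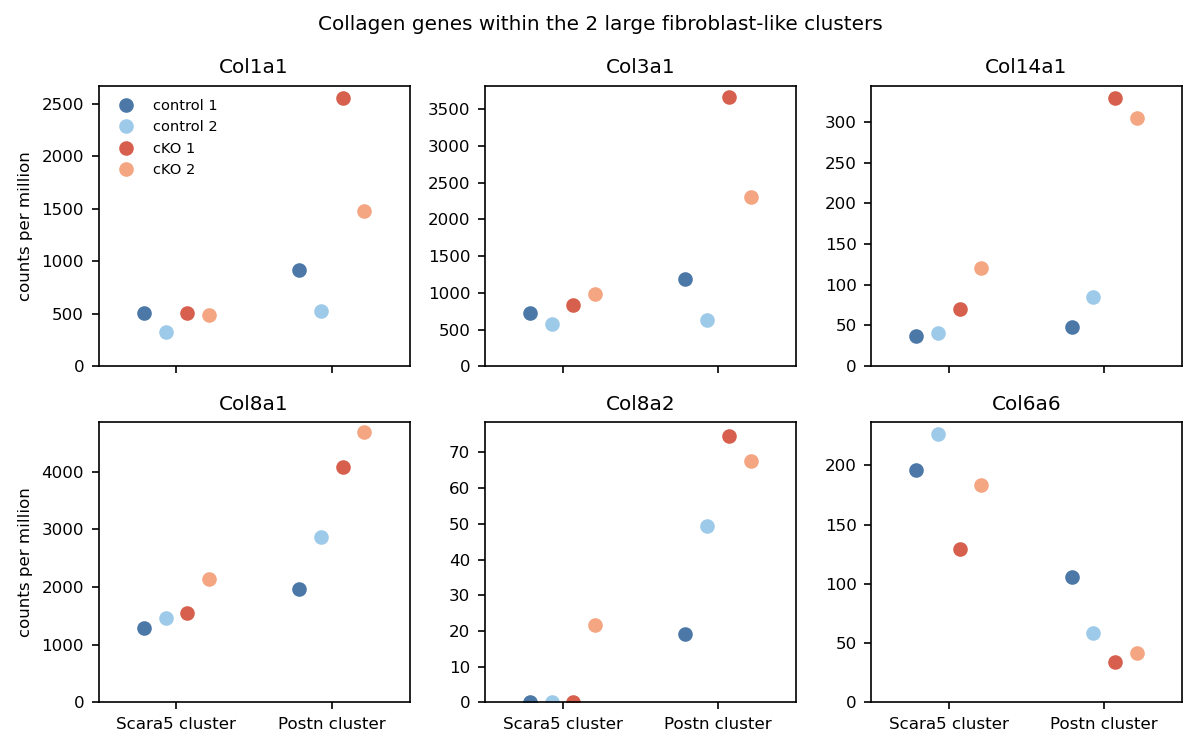
CPM of 6 collagen genes in the fibroblast-like clusters led by Scara5 and by Postn; each point is 1 library. In the Postn cluster both cKO points lie above both controls for Col1a1, Col3a1 and Col14a1, and Col6a6 is higher in the Scara5 cluster than in the Postn cluster in all 4 libraries.

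The share of fibroblast-like nuclei with a UMI moved in the same direction after each nucleus was thinned to 1000 UMIs. For Col1a1 it was 33.1% and 26.8% in the controls and 62.1% and 50.7% in the cKO. In cardiomyocyte-like nuclei, taken as the background of free RNA, it was 2.77% and 2.08% and then 2.71% and 2.84%. For Col14a1 it was 3.38% and 4.34% in control and 21.9% and 18.2% in cKO fibroblast-like nuclei, and for Col6a6 13.2% and 17.3% and then 4.74% and 5.54%. Thinned, both genes lay above their share in cardiomyocyte-like nuclei, which was at most 0.801%. Thinning lowered the share more in those deeper nuclei. Unthinned, Col14a1 was found in 2.37% and 2.42% of control cardiomyocyte-like and 4.46% and 6.45% of control fibroblast-like nuclei. How much of these shares is free RNA was not tested.

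Col8a2 and Col12a1 were rare. Col8a2 was found in 0.376% and 0.369% of thinned control and 4.55% and 4.33% of cKO fibroblast-like nuclei, and Col12a1 in 0.376% and 0.185% and 3.16% and 3.04%. In cardiomyocyte-like nuclei Col8a2 was found in at most 0.187% and Col12a1 in at most 0.138%. Both of these lie within the exact 95% binomial intervals of the control fibroblast-like shares, which cannot be told from background. Thinning left out 182, 78, 119 and 48 nuclei of control 1, control 2, cKO 1 and cKO 2. Unthinned, Col1a1 was found in 40.2% and 37.9% of control and 67.2% and 66.6% of cKO fibroblast-like nuclei, at median depths of 1070 and 1575 and of 1446 and 2075 UMIs, against 3162.5 to 5279 UMIs in cardiomyocyte-like nuclei.

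In endothelial-like nuclei the collagen genes that passed were all of the basement membrane. Of 24 tested, 2 rose and 2 fell, where 3.71% of all 11685 genes passed (0.736% up and 2.97% down). The median log2 fold change was 0.44 over the 24 and 0.01 over all genes. None of 7 fibrillar genes passed in edgeR, none had an unadjusted p under 0.05 (15.3% of all genes), and the groups overlapped for all 7, where those of 45.2% of all genes did not. Col3a1 read 158 and 86.7 CPM in the controls and 250.2 and 101 in the cKO, and Col5a2 121 and 144 against 145 and 128. Of the FACIT and other types, Col14a1 read 14.7 and 8.23 against 26.1 and 13.3, Col20a1 12.9 and 4.43 against 10.3 and 10.3, Col8a1 147 and 149 against 202 and 182 and Col6a1 77.2 and 61.4 against 100.1 and 57.5, and none of them passed in edgeR.

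Col15a1, which lies at the outer face of basement membranes, rose in endothelial-like nuclei. It read 147 and 115 CPM in the controls and 394 and 315 in the cKO, a fold change of 2.75 (log2 1.46 ± 0.24; edgeR adjusted p = 0.00278). Col4a1 read 421 and 443 CPM against 1000.2 and 854, a fold change of 2.14 (log2 1.10 ± 0.23; edgeR adjusted p = 0.0116). Col4a2 read 498 and 464 CPM against 845 and 778 and did not pass (log2 0.76, edgeR adjusted p = 0.0781). All 3 genes had both cKO libraries above both controls. The Col4a1 call was lost without control 1 (edgeR adjusted p = 0.121), control 2 (0.0799) or cKO 1 (0.0607).

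Col4a5 and Col4a4, which encode chains of other type IV networks, fell. Type IV helices combine alpha1 with alpha2 chains in most basement membranes, alpha3, alpha4 and alpha5 chains in some, and alpha5 with alpha6 chains in others. Col4a5 read 167 and 133 CPM in the controls and 69.2 and 65.6 in the cKO, 2.2-fold lower (log2 -1.14 ± 0.23; edgeR adjusted p = 0.0103). Col4a4 read 237 and 246 CPM against 118 and 130.2, 1.94-fold lower (log2 -0.96 ± 0.21; edgeR adjusted p = 0.0193). Col4a3 read 84.5 and 175 CPM against 53.5 and 73.5 and did not pass (log2 -1.07, edgeR adjusted p = 0.0554). Both cKO libraries lay below both controls for all 3. The Col4a5 call was lost without cKO 2 (edgeR adjusted p = 0.0603), and that of Col4a4 under each single omission (0.0516 to 0.115).

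The endothelial calls depended on which nuclei were admitted. With a mitochondrial limit of 20% in place of 5%, endothelial-like nuclei rose from 368, 944, 913 and 1939 to 1101, 2463, 2197 and 4001 in control 1, control 2, cKO 1 and cKO 2, and none of 32 collagen genes passed in edgeR, where 0.117% of 14472 genes did. With an unadjusted p under 0.05 there were 12 of the 32, against 7.75% of all genes. Col15a1 then had a log2 change of 1.59 (edgeR adjusted p = 0.0633), Col4a1 0.84 (0.24), Col4a4 -0.25 (0.859) and Col4a5 -0.06 (0.981). With at least 1000 UMIs per nucleus, Col4a1 (0.0528) and Col4a5 (0.264) did not pass.

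**Figure D5:**
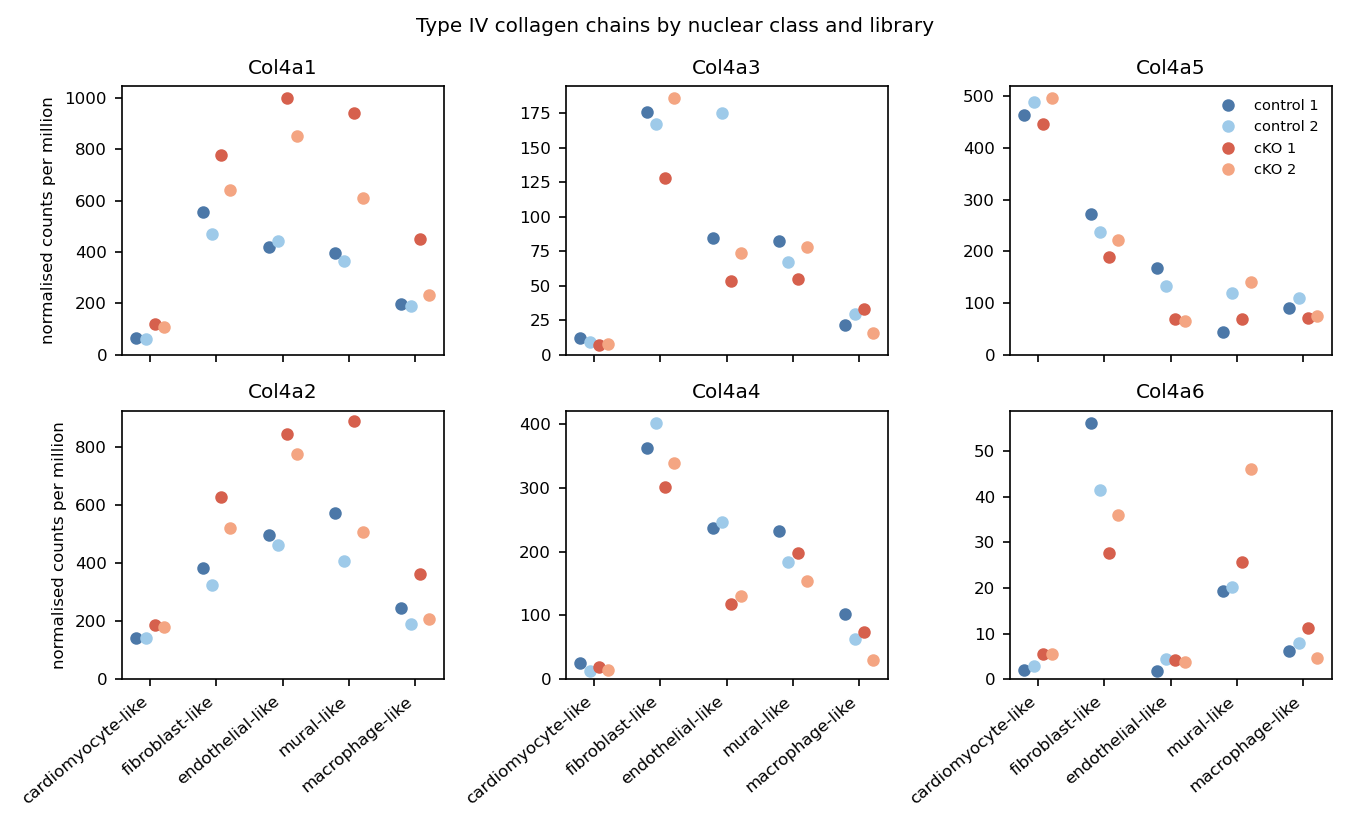
Normalised CPM of the 6 type IV chains in 4 libraries and 5 nuclear classes; each point is 1 library. In endothelial-like nuclei Col4a1 and Col4a2 are higher and Col4a3, Col4a4 and Col4a5 lower in both cKO libraries, and Col4a5 is highest in cardiomyocyte-like nuclei.

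Type IV genes lie head to head in pairs. The starts of Col4a1 and Col4a2 were 21 bases apart in RefSeq, those of Col4a3 and Col4a4 72 bases in GENCODE M21, and those of Col4a5 and Col4a6 1343 bases in RefSeq. Within the last pair, Col4a6 had too few counts to be tested in endothelial-like nuclei.

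Col4a4 and Col4a3 were concentrated in 1 endothelial-like cluster. That cluster, led by Nrg1 and Npr3, markers of the endocardium, held 19.0% and 19.3% of control and 10.5% and 9.23% of cKO endothelial-like nuclei. Col4a4 read 687 and 791 CPM there in the controls and 572 and 768 in the cKO, without further normalisation. In the cluster led by Car4, a capillary marker, it read 56.0 and 27.2 against 31.3 and 31.2. Col4a3 read 265 and 545 CPM against 221 and 443 in the first and 4.31 and 36.8 against 24.2 and 13.5 in the second.

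Fits without some clusters were chosen after seeing the data. Without the endocardial cluster, where 3.18% of 10723 genes passed, Col4a4 did not pass (log2 -0.24, edgeR adjusted p = 0.848). Col15a1 (log2 1.39, edgeR adjusted p = 0.00515), Col4a1 (0.99, 0.0247) and Col4a5 (-1.25, 0.0216) did. In the Car4 cluster alone, where 0.323% of 8986 genes passed, Col15a1 did (log2 1.21, edgeR adjusted p = 0.0236) and Col4a1 (0.96, 0.0636), Col4a4 (-0.24, 0.932) and Col4a5 (-1.14, 0.106) did not. The same 4 genes passed without a cluster led by Adamts4 and Selp, 184 of whose 189 nuclei came from cKO 2, where 3.67% of 11695 genes did. DESeq2 called these 4 and Col4a2, where 0.928% of the genes it fitted were called. The summed level of 10 fibroblast markers in endothelial-like nuclei was 1276 and 1201 CPM in the controls and 992 and 849.5 in the cKO. The part of fibroblast RNA in the endothelial values was not tested.

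In cardiomyocyte-like nuclei Col4a1 was the only one of 29 collagen genes tested that passed, where 2.77% of all 15355 genes did (1.24% up and 1.54% down). DESeq2 too called Col4a1 alone of the class, where 1.34% of the genes it fitted were called. Col4a1 read 64.6 and 59.3 CPM in the controls and 119.8 and 107 in the cKO, a fold change of 1.83 (log2 0.88 ± 0.15; edgeR adjusted p = 0.0186), with no overlap. The call held without any 1 library. Col4a2 read 144 and 143 CPM against 188 and 178 and did not pass (log2 0.35, edgeR adjusted p = 0.277). The median log2 fold change was -0.12 over the 29 and 0.00 over all genes. Most cKO nuclei of the class (67.0% and 69.0%) lay in a cluster led by Kctd16 and Nppb, which held 10.8% and 9.97% of the control nuclei.

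Col4a5, a chain of the minor type IV networks, was higher in cardiomyocyte-like nuclei than in any other class tested. It read 463 and 489.6 CPM in the controls and 447 and 497 in the cKO, above the highest fibroblast-like library (272 CPM). The groups overlapped, and the log2 change was -0.01 ± 0.14.

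Other collagens were low in this class and did not pass. Col3a1 read 59.3 and 36.3 CPM in the controls and 58.4 and 38.2 in the cKO, and Col1a2 45.5 and 34.2 against 49.7 and 32.9. Col14a1 read 8.76 and 6.4 against 4.25 and 4.17, Col20a1 4.48 and 4.33 against 4.25 and 3.82, Col8a1 47.7 and 45.9 against 32.7 and 36.1 and Col6a1 19.0 and 15.5 against 21.3 and 13.6. The level of Col1a1 was 1.66% to 6.78% of that in fibroblast-like nuclei of the same library. Whether such low levels are free RNA was not tested.

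In mural-like nuclei none of 22 collagen genes passed in edgeR and none of 40 in DESeq2, which called 0% of the genes it fitted. Of all 8139 genes tested in edgeR, 0.258% passed. With an unadjusted p under 0.05 there were 9 of the 22 in edgeR, against 5.6% of all genes. In DESeq2 there were 4 of 40, against 0.645%. The median log2 fold change was 0.47 over the 22 and -0.00 over all genes. Col4a1 read 396 and 363 CPM in the controls and 944 and 609 in the cKO (log2 1.03 ± 0.27; edgeR adjusted p = 0.105). Col25a1 read 140.0 and 121 CPM against 36.6 and 59.1 (log2 -1.33 ± 0.35; edgeR adjusted p = 0.0994), on 130 control and 51 cKO UMIs. The groups did not overlap for either gene, nor for 7 of the 22 collagen genes in all, against 34.2% of all genes.

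The other high collagens of mural-like nuclei overlapped more. Col5a3, a type V chain, read 459 and 326 CPM in the controls and 439 and 338 in the cKO, and Col3a1 348 and 198 against 571 and 266. Col4a2 read 575 and 409 against 889 and 508, and Col6a1 386 and 210.4 against 348 and 235. The groups overlapped for these 4 genes and for Col14a1 (24.1 and 12.0 against 69.5 and 18.7), but not for Col8a1 (188 and 219 against 454 and 248) or Col19a1 (9.66 and 26.3 against 36.6 and 50.4).

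In macrophage-like nuclei the chains of type I collagen rose, the 2 genes called of 21 tested, where 0.441% of all 10646 genes passed (0.319% up). Col1a1 read 199 and 74.4 CPM in the controls and 865 and 327 in the cKO, a fold change of 4.67 (log2 2.22 ± 0.45; edgeR adjusted p = 0.0361). Col1a2 read 214 and 137 CPM against 841 and 359, a fold change of 3.49 (log2 1.80 ± 0.37; edgeR adjusted p = 0.0361). The groups did not overlap (39.9% of all genes did not). For both genes cKO 1 was far above cKO 2, and control 1 was also above control 2. Col3a1 read 270.4 and 120.5 against 913 and 389 (log2 1.79, edgeR adjusted p = 0.057) and Col8a1 214 and 242 against 816 and 435 (log2 1.44, edgeR adjusted p = 0.0528), and neither passed.

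Fibroblast markers moved with these values in part. All 10 of them had at least 1 UMI in macrophage-like nuclei of every library, the lowest being Tcf21. Their summed level was 1558 and 1516 CPM in the controls and 2026 and 1152 in the cKO, or 12.6% and 12.6% and then 19.6% and 10.5% of that in fibroblast-like nuclei. Col1a1 stood at 33.9% and 20.3% of its fibroblast-like level in the controls and 36.8% and 24.3% in the cKO. The part of fibroblast RNA in the result was not tested.

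The macrophage calls also depended on the libraries and the tool. No collagen gene passed in edgeR without control 2, where 0.201% of all genes did, and 6 of 22 had an unadjusted p under 0.05. Col1a1 then had a log2 change of 1.57 (edgeR adjusted p = 0.265) and Col1a2 of 1.47 (0.352). Over all alternatives the log2 change ran from 1.40 (without cKO 1) to 2.97 (without control 1) for Col1a1, and from 1.08 (without cKO 1) to 2.31 (without cKO 2) for Col1a2. DESeq2, which called 0.11% of the genes it fitted, called 2 of 41 collagen genes, and Col1a1 was not among them (DESeq2 adjusted p = 0.616). An unnamed cluster led by Gpnmb held 9 and 11 nuclei of controls 1 and 2 and 247 and 270 of cKO 1 and 2. With it joined, Col1a1 passed and Col1a2 did not (edgeR adjusted p = 0.0451 and 0.0567), where 1.57% of 11395 genes passed. The number of collagen genes called was 5 without control 1 (0.646% of all genes called), 5 without cKO 1 (1.42%) and 11 without cKO 2 (2.69%).

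The remaining collagens of this class did not pass. Col4a1 read 196 and 189 CPM in the controls and 452 and 231 in the cKO, Col4a2 246 and 191 against 363 and 209 and Col6a1 127 and 60.7 against 218 and 74.4. Col14a1 read 65.3 and 48.0 against 93.8 and 74.4 and Col20a1 21.8 and 17.6 against 19.1 and 15.6. In the controls Col14a1 stood at 166% and 100.1% of its fibroblast-like level, and in the cKO at 30.9% and 26.3%.

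Whether the cKO effect differed between classes was tested as an interaction with the library as a term. That term takes up the spread between pools, so these p-values measure only the scatter left within libraries. Between fibroblast-like and endothelial-like nuclei it differed for 11 of 31 collagen genes, where 6.11% of all 13026 genes did. The effect was higher in fibroblast-like nuclei for Col14a1 (by log2 1.84), Col3a1 (1.42), Col1a1 (1.41), Col5a2 (1.35), Col1a2 (1.00) and Col8a1 (0.98). It was also higher for Col4a3 (1.04), Col4a5 (0.84) and Col4a4 (0.67). At the 20% mitochondrial limit the sign turned for Col4a5 (-0.24) and Col4a4 (-0.084), and without control 2 the Col4a3 difference was 0.21 (edgeR adjusted p = 0.819). It was lower for Col15a1 (-1.07, edgeR adjusted p = 4.06e-05) and Col4a1 (-0.62, edgeR adjusted p = 0.00848), whose difference was -0.13 and did not pass at the 20% limit (edgeR adjusted p = 0.639). Without cKO 2 the difference held for Col15a1, Col1a1, Col3a1, Col5a2 and Col8a1.

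Against mural-like nuclei the effect differed for 6 of 31 collagen genes, where 1.88% of all 11085 genes did. It was higher in fibroblast-like nuclei for Col3a1 (by log2 1.34, edgeR adjusted p = 8.24e-08), Col5a2 (1.26), Col1a2 (1.03), Col1a1 (0.98) and Col8a1 (0.72), and lower for Col5a3 (-0.84, edgeR adjusted p = 0.00806). Col3a1 alone passed without control 2, and Col1a2, Col3a1 and Col5a2 passed without control 1 or without cKO 2. The Col8a1 difference was 0.13 without cKO 2 (edgeR adjusted p = 0.974) and passed under only 4 of 12 alternatives. Without the library term no collagen gene passed in edgeR in either comparison, where 0.246% and 0.0541% of all genes did. At an unadjusted p under 0.05 there were 12 and 9 of 31, against 8.92% and 4.99% of all genes.

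Genes that bind, fold, cleave or sense collagen were read from a list of 33. In fibroblast-like nuclei 5 of 10 tested binding proteins and fibril regulators rose and none fell, where 2.22% of all genes rose and 1.4% fell. They were the fibronectin gene Fn1 (edgeR log2 3.02, adjusted p = 0.00121) and Fmod (3.56), Bgn (1.56), Aspn (1.20) and Lum (1.11), which encode small leucine-rich proteoglycans. Fmod rested on 1 and 4 UMIs in the controls against 33 and 70 in the cKO, and so passed the filter through the cKO libraries. Lum was also among the markers that named the class. Of 7 collagen receptors tested, Itga11, an integrin chain for fibrillar collagen, rose (1.01). Of 11 tested genes for folding, secretion and cleavage, Serpinh1, the collagen chaperone (1.48), and Adamts2 (0.83) rose and Adamts14 fell (-2.14). Adamts2 and Adamts14 encode enzymes that trim the amino end of procollagens.

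The list held fewer changes in the other classes. In endothelial-like nuclei Serpinh1 (edgeR log2 1.15) and Tll1 (1.41), which encodes a protease that trims the carboxyl end of procollagens, rose among 26 tested (0.736% of all genes rose). In macrophage-like nuclei Fn1 rose among 24 tested (log2 3.29, 0.319% of all genes rose), and in cardiomyocyte-like nuclei Ogn fell among 28 tested (log2 -0.93, 1.54% of all genes fell). None of 23 passed in edgeR in mural-like nuclei (0.258% of all genes did), 5 with an unadjusted p under 0.05 (5.6% of all genes).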

How the data were processed

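Per the labels, nuclei were sorted and profiled on the BD Rhapsody system. The matrices the authors deposited hold raw UMI counts of every gene in every barcode, on build mm10 per the submitters' processing notes. No source used here gives the aligner, annotation or rule for calling cells, and 27178 of the 44628 gene identifiers matched GENCODE M21. The collagens, gene lists and comparisons were chosen with earlier results of these data known.

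A nucleus was kept if it had 300 genes or more, 500 UMIs or more and mitochondrial UMIs of at most 5%. The mitochondrial limit alone was exceeded by 48.8% to 53.8% of barcodes per library. Barcodes in the top 0.5% of UMIs were removed, then the doublets called by Scrublet in cKO 2 (13.5%) and, where its threshold marked almost none, the 6% of nuclei with the highest doublet scores. Libraries shared at most 2 barcodes. Nuclei were clustered with scanpy 1.11.5 and leidenalg 0.10.2 (2000 variable genes less 23 collagens, 30 principal components, 15 neighbours, resolution 1). The 24 clusters were named from fixed markers, at least 3 of which had to reach 10% of nuclei and a 2-fold excess, by a rule adjusted after seeing the data.

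UMIs were summed per library and class. edgeR 4.0.16 (TMM, filterByExpr, quasi-likelihood test, R 4.3.3) was fitted to all genes, with Benjamini-Hochberg adjustment over all genes tested in a class. With 2 libraries per group, an exact permutation test cannot go below p = 0.333, so none is given. Values in every library are printed for collagens called in a class and for the 2 highest of each collagen group in it, apart from a few chosen after their values were seen. Because each library pools 2 hearts, p-values of the tests within a class refer to the spread between pools, which edgeR estimates partly from other genes. The SE of a gene is therefore not the scatter of its own libraries alone. In the interaction tests the library term takes up the spread between pools, and p-values measure the scatter left between classes within libraries. The alternatives were DESeq2 1.42.0, RLE scaling, no filter, each library left out, the replicate number as a block, and other limits on nuclei. The code was tested on simulated counts. Whether a count was made with regard to strand is not stated, so overlapping genes cannot be told apart. Intervals cover counting error only.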

Additional observations from a re-analysis of the deposited data

Results flagged for a closer look

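The cKO effect differed between classes, by the interaction test in edgeR with an adjusted p under 0.05, for the following collagen genes. Each value is the log2 effect in fibroblast-like nuclei minus that in the other class, over 2 libraries per group. Against endothelial-like nuclei 11 of 31 collagen genes differed (6.11% of all genes), and against mural-like nuclei 6 of 31 (1.88% of all genes). Without the library term no collagen gene passed in either comparison (0.246% and 0.0541% of all genes).

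Against endothelial-like nuclei the difference was positive for fibrillar genes, at 1.41 for Col1a1, 1.00 for Col1a2, 1.42 for Col3a1 and 1.35 for Col5a2. It was 1.84 for Col14a1 and 0.98 for Col8a1. Among the basement membrane genes it was 1.04 for Col4a3, 0.67 for Col4a4 and 0.84 for Col4a5, and it was negative for Col4a1 (-0.62) and Col15a1 (-1.07). Over the alternatives the values of Col4a3 ran from 0.21 to 1.36. Those of Col4a4 (-0.084 to 0.96) and Col4a5 (-0.24 to 1.00) changed sign. Col4a1 (-0.83 to -0.13) did not pass under 6 of 12 alternatives. Col14a1, Col1a2 and Col4a3 did not pass under 3, and Col1a1, Col3a1, Col5a2, Col8a1 and Col15a1 under 1.

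Against mural-like nuclei the difference was 0.98 for Col1a1, 1.03 for Col1a2, 1.34 for Col3a1, 1.26 for Col5a2 and 0.72 for Col8a1. It was negative for Col5a3 alone (-0.84). The Col8a1 value ran from 0.13 to 1.20 over the alternatives and did not pass under 8 of 12. Col1a1 and Col5a3 did not pass under 4 of the 12, Col1a2 and Col5a2 under 2 and Col3a1 under 1.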

How the results depend on the processing

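Counts of collagen genes called moved with the libraries used in every class but mural-like, and so did the share of all genes called. With 1 library left out, a group holds a single library, so no counts of those fits are given here. Macrophage counts, against 2 in the main fit (0.441% of all genes), were 6 without the filter (0.548%) and 6 at the 20% mitochondrial limit (1.75%). They were 6 at 1000 UMIs (3.29%), 5 with no doublets removed (2.07%) and 7 with collagens kept in clustering (2.82%). The class itself changed: cKO 1 and cKO 2 gave 320 and 536 nuclei in the main fit and 1051 and 1531 at the 20% limit. Controls 1 and 2 gave 243 and 584, and then 425 and 825. Endothelial counts were 0 at the 20% limit (0.117% of all genes), where 12 of 32 had an unadjusted p under 0.05 in edgeR (7.75% of all genes). The mural count was 1 with 6% doublets removed everywhere (0.158% of all genes). Without the library term 0 interactions passed in edgeR (0.246% and 0.0541% of all genes), with 12 and 9 at an unadjusted p under 0.05 (8.92% and 4.99%). Among fits chosen after seeing the data, the Postn cluster alone gave 4 (0.713% of all genes) and the Scara5 cluster alone 0 (0.0436%). The Car4 cluster alone gave 1 (0.323%), and macrophage-like nuclei joined by the Gpnmb cluster 1 (1.57%). In fibroblast-like, endothelial-like and macrophage-like nuclei respectively, DESeq2 called 11, 5 and 2, where 1.04%, 0.928% and 0.11% of all genes were called.

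With the replicate block, the counts were 10 in cardiomyocyte-like, 20 in fibroblast-like, 10 in endothelial-like, 3 in mural-like and 9 in macrophage-like nuclei, where 24.7%, 15.8%, 19%, 1.74% and 6.6% of all genes passed. Deviations of same-numbered libraries correlated at 0.177 (mural-like) to 0.509 (cardiomyocyte-like), but there are only 2 pairs, and the labels share a number and nothing more.

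Of the values of single genes under an alternative, 734 kept their direction and their side of the threshold, 58 passed it newly, 90 no longer passed, and 37 changed sign. With each library left out in turn, 7 of these genes went from below to above 0. In cardiomyocyte-like nuclei Col1a1 ranged from -0.39 (without cKO 1) to 0.71, Col3a1 from -0.31 to 0.40, Col1a2 from -0.27 to 0.32 and Col4a5 from -0.10 to 0.057. In mural-like nuclei Col5a3 ranged from -0.24 (without control 2) to 0.23 and Col6a1 from -0.42 to 0.43, and in fibroblast-like nuclei Col6a3 from -0.016 to 0.32. In cardiomyocyte-like nuclei at 1000 UMIs, Col4a5 was 0.016, Col1a1 -0.015, Col3a1 -0.13 and Col1a2 -0.072. Col4a5 was 0.012 with no doublets removed and 0.0048 with collagens kept in clustering, Col1a2 was -0.0073 with collagens kept, and Col8a1 was 0.058 at the 20% limit. In the Scara5 cluster alone Col1a2 was -0.031, Col15a1 -0.072, Col6a1 -0.030 and Col5a1 -0.097. In mural-like nuclei Col5a3 was -0.0048 with RLE, -0.0039 without the filter, -0.14 at the 20% limit, -0.093 with no doublets removed, -0.10 with 6% removed everywhere and -0.027 with collagens kept. Col6a1 was -0.00088 with RLE, -0.0023 without the filter, -0.0069 in DESeq2 and -0.057 with 6% removed. At the 20% limit the difference between fibroblast-like and endothelial-like effects was -0.084 for Col4a4 and -0.24 for Col4a5. None of the 37 values passed in edgeR or DESeq2, and the causes were not tested.

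Depth limits the rarest genes most: in fibroblast-like nuclei Col8a2 and Col12a1 had 13 and 14 control UMIs, and Col26a1 had 6 and 18 cKO UMIs. Without the filter, 12 of 42 collagen genes passed in fibroblast-like nuclei (1.97% of all genes), against 10 of 28 with it.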
